A study of Homo sapiens with 24 samples.

Results

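The regions described here carried H3K27Ac over input in MCF10A (10A) control cells and overlapped no such region of MCFDCIS (DCIS) control cells by as much as 1 bp. They were thus selected on the authors' log2 fold changes and FDR over input in the control cells of both lines. There were 8448 of them among the 15490 regions of 10A control cells, and the other 7042 overlapped a DCIS control region. H3K27Ac ChIP-seq was measured in 24 libraries, 3 for each of 8 groups, in 2 human mammary epithelial lines. 10A is an immortalized non-tumorigenic line, and DCIS is a line of the same lineage used as a model of early triple-negative breast cancer still confined to the ducts. Each line was infected with lentivirus carrying a short hairpin against ANCO1 (shANCO1) or a control hairpin (shCTRL, written shGFP in the deposited tables), and each was grown in serum with EGF, hydrocortisone, insulin and cholera toxin. The groups used were 10A shCTRL, 10A shANCO1, DCIS shCTRL and DCIS shANCO1, each immunoprecipitated and as input, which is chromatin that was not pulled down. The labels name no clone and do not say whether the 3 libraries of a group came from separate cultures.

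Acetylation of lysine 27 on histone H3 marks active promoters and enhancers, the latter often in introns or between genes and often differing from one cell state to the next. The acetylated nucleosomes lie beside the nucleosome-depleted stretch where transcription factors bind. AP-1, a dimer of FOS and JUN proteins, and TEAD proteins, which recruit the coactivators YAP and TAZ, are widely known as enhancer-binding factors of epithelial cells. ANCO1, encoded by ANKRD11, is a nuclear cofactor that recruits histone deacetylases. The comparison asks what became of the H3K27Ac sites of control 10A cells that control DCIS cells lacked, once ANCO1 was reduced in either line.

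The sequences below were chosen after their values were seen, to show AP-1 letters in short gaps between neighbouring regions of this set. They are not typical, since 33.7% of the 466 gaps of 300 bp between such neighbours held AP-1 letters. All are from GRCh38 (hg38), plus strand, outside annotated exons, with matches to the AP-1 letters TGACTCA or the TEAD letters GGAATG on either strand in capitals. The first 4 each fill a gap of 300 bp between neighbouring regions at MICAL2 (chr11:12167101-12167400), AIG1 (chr6:143328901-143329200), FYB1 (chr5:39197601-39197900) and F3 (chr1:94539501-94539800). The fifth fills the gap at ADAMTSL1 (chr9:18490501-18490800), whose flanking regions had the largest gain in DCIS, and holds neither match. The sixth, with neither match, is the centre of the region with the largest loss in 10A (chr2:213216201-213216400).
MICAL2 gap: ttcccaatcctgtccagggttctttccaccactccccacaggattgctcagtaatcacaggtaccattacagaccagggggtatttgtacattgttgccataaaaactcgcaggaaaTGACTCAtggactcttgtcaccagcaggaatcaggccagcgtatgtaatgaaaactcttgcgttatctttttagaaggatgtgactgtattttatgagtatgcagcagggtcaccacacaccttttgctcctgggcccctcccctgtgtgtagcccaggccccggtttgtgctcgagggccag
AIG1 gap: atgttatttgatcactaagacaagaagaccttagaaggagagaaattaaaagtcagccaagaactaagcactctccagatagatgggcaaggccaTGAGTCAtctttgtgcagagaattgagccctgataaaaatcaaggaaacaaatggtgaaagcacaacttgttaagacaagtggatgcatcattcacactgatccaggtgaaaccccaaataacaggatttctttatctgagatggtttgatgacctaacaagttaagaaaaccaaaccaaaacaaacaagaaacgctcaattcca
FYB1 gap: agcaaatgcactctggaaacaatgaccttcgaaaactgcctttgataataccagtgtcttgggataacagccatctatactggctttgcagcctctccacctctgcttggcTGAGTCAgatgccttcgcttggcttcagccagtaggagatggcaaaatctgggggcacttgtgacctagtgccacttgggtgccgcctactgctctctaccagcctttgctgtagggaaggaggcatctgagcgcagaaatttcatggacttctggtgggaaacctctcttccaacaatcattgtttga
F3 gap: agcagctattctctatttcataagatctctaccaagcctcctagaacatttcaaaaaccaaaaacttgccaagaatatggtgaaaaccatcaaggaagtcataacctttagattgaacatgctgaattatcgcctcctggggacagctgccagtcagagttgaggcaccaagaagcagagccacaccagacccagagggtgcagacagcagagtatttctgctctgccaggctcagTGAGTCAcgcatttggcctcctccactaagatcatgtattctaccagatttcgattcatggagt
ADAMTSL1 gap: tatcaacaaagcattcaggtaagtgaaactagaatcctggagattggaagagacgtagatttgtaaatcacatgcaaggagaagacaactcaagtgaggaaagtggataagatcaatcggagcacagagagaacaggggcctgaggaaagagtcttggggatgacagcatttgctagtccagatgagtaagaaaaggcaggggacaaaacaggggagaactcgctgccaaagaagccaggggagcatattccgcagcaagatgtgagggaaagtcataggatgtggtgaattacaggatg
Region lost in 10A: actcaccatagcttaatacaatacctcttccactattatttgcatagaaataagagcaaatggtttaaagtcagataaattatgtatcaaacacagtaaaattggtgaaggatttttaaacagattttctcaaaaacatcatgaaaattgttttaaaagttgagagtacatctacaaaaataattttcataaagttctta

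The 10A-only regions were mostly distal. By the authors' annotation 38.9% of them touched a promoter, 2.40% an exon, 34.3% an intron only and 24.4% no gene, whereas 77.3% of the 10A regions common to both lines touched a promoter. The 8891 DCIS control regions with no 10A counterpart were between these, with 60.6% at a promoter. The difference was present at every width. Of regions 200 bp wide, 44.6% of the 10A-only and 82.5% of the common ones touched a promoter, and of regions of 1000 bp or more the shares were 29.3% and 67.8%. By a different count, 16.9% of the 10A-only regions had the transcription start site (TSS) of a protein-coding gene within 1 kb. The authors' promoter class also takes in non-coding genes and regions more than 1 kb from such a site, so the 2 shares are not alike. A CYP4X1 region of that class lay 8932 bp from the nearest coding TSS.

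The 10A-only regions covered 4.23 Mb with a median width of 400 bp, and 2299 of them were a single window of 200 bp. The common regions covered 4.81 Mb with a median width of 500 bp. The median GC content of the central 500 bp was 39.0% in 10A-only and 49.8% in common regions. Outside promoters the medians were 37.8% and 41.4%. The share of 10A regions absent from DCIS ranged from 25.8% on chromosome 19 to 69.4% on the X chromosome.

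The nearest DCIS control region lay a median of 41301 bp away, and 2835 of the 10A-only regions had none within 100 kb. Another 1344 had one within 1 kb, and 173 touched one without sharing a base. These 173 regions at the edge of the rule were 82.7% promoter regions, with a median log2 fold change over input of 3.10. The 279 regions that just failed it, sharing 100 bp with a DCIS region, were 80.6% promoter regions with a median of 2.83. Over input, which chose the regions, the 10A-only regions had a median log2 fold change of 3.71 against 2.93 for the common ones. These values were not spread evenly, with 7 regions between 6.0 and 6.5 and 863 between 6.5 and 7.0. They are used only to rank and describe regions. Values per library were not part of the tables used here, so the spread between replicates and the depth behind a region are unknown.

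Most of the 10A-only regions were still marked when ANCO1 was knocked down in 10A, and a part of them was marked in DCIS knockdown cells. A 10A shANCO1 region over input overlapped 7697 of them (91.1%), against 98.1% of the common regions. A DCIS shANCO1 region overlapped 2123 (25.1%), although none overlapped a DCIS shCTRL region. For common regions that share was 88.6%. In the mirror case, 47.9% of the 8891 DCIS control regions with no 10A counterpart overlapped a 10A shANCO1 region. Over input, 10A shANCO1 cells had 28607 regions and DCIS shANCO1 cells 16692. The 2123 regions had a median width of 500 bp against 300 bp for the others, and 42.6% against 37.7% of them touched a promoter. Their median log2 fold change over input was 4.81 in DCIS shANCO1 cells, against 4.83 for the common regions with such an overlap.

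In the direct comparison of shANCO1 with shCTRL in 10A, 5266 of the 8448 regions gained H3K27Ac and 37 lost it at a false discovery rate (FDR) under 0.05 in the authors' csaw test. The gain was small at each region, with a median log2 fold change of 0.85 and 80% of regions between 0.38 and 1.28, taking the 10th and 90th percentiles. Of all 50284 regions tested in 10A, 43.6% were called up and 0.225% down, with a median of 0.76. The 10A-only regions were up in 62.3% and down in 0.438%. The common regions, which like these were marked in 10A control cells, were up in 70.4% with a median of 0.80. The shCTRL libraries of this comparison also chose the regions, so these shares are descriptions. Neighbouring regions can also share 1 tested region and so its value. Because the median of all 10A regions was 0.76, a 10A gain below this turns negative when values are centred on it. With the direction taken that way 4481 of the called regions counted as up and 822 as down in 10A. The FDR was still that of the authors' test against no change, so no region was tested against the median. Most of the 822 were called up by that test. The DCIS counts given next did not change, as the DCIS median was 0.52 and 3366 of the 3385 gains there were 1 or more. Promoter regions were called up more often (69.3%) than intronic (57.0%) or intergenic ones (58.9%), at medians of 0.86, 0.85 and 0.83.

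In DCIS the same regions gained more. Of the 8448, 6023 overlapped a region tested in DCIS, and of these 3385 (56.2%) were up and 32 (0.531%) down. Of all 44790 regions tested in DCIS, 23.6% were up and 4.86% down. The median log2 fold change of the tested 10A-only regions was 1.38, against 0.51 for the common regions and 0.52 for all regions tested. The common regions were up in 16.7% and down in 2.43%. Absence of a DCIS shCTRL region is part of the rule, and the same DCIS shCTRL libraries are the denominator here, so a low control level was selected and these shares are again descriptions. The 2425 regions not tested in DCIS were narrower (median 300 bp against 400 bp) and less often at promoters (25.4% against 44.4%). In the mirror case, DCIS control regions with no 10A counterpart were up in 58.1% of 6614 tested in 10A, with a median of 0.82. Of all regions tested in 10A, 43.6% were up.

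Distal members gained most often in DCIS, as did distal common regions. Intergenic regions were up in 73.4% of 1366 tested, intronic ones in 67.2% of 1844 and promoter regions in 39.0% of 2675, with medians of 1.75, 1.62 and 0.96. The common regions had the same order at lower shares, 37.1%, 35.4% and 11.0%. In 10A promoter regions had the highest share instead. Among common regions in 10A, 72.4% of promoter, 62.7% of intronic and 63.6% of intergenic ones were up. The DCIS share went up with width from 43.3% of regions of 200 bp to 78.2% of those of 1000 bp or more. For common regions it went from 9.76% to 27.6%. Among 10A-only regions the share also differed by distance and GC content. It was 65.3% of the 4106 tested regions with no DCIS control region within 5 kb and 36.6% of the 1917 with one. By GC content it was 53.5% under 35% GC, 62.0% from 35% to 45% and 48.8% at 45% or more. In 10A it went from 53.9% to 61.0% and 73.5% over the same classes. Common regions had like patterns, with 20.4%, 22.7% and 13.6% in DCIS and 57.8%, 67.3% and 73.1% in 10A. The part of base composition in the calls was not tested.

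**Figure D1:**
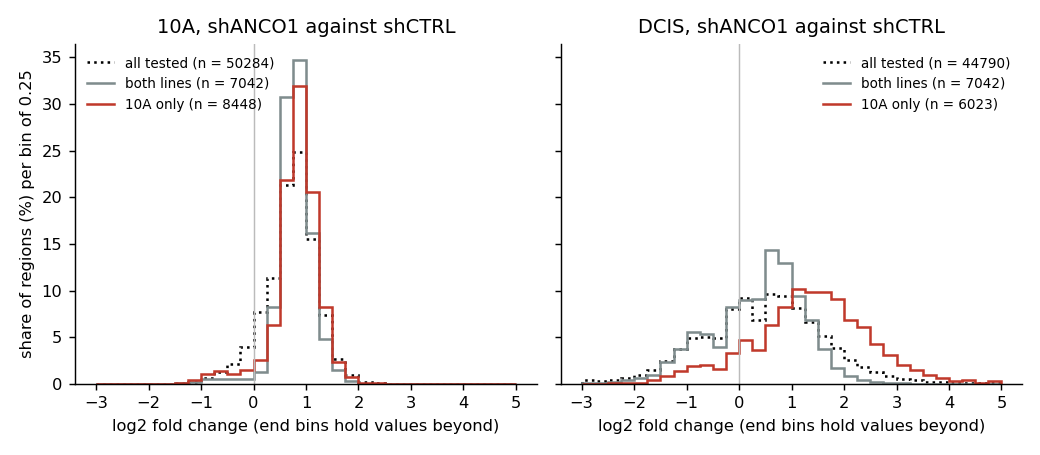
Share of regions (%) by log2 fold change of shANCO1 against shCTRL, in bins of 0.25, for 10A (left) and DCIS (right). Red, 10A-only regions; grey, regions common to both lines; dotted, all regions tested. In 10A the medians are 0.85, 0.80 and 0.76 and the curve of all regions is broader, with 7.73% of regions between 0 and 0.25 against 2.51% of the 10A-only ones. In DCIS the 10A-only regions lie to the right, at a median of 1.38 against 0.51 and 0.52.

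Of the 3964 regions up in 10A and tested in DCIS, 58.8% were up in DCIS, and of the 2039 tested regions called in neither direction in 10A, 51.2% were. In all, 2331 regions gained in both lines, whereas 16 gained in 10A but lost in DCIS and 11 did the opposite. Of the 3385 regions up in DCIS, 1646 overlapped a DCIS shANCO1 region over input. None of the 32 regions down in DCIS did, but the rule left little room for it. They had no DCIS control region before the loss, so this is no contrast with the regions up.

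Regions unmarked in DCIS control cells were compared among themselves by whether 10A control cells marked them, which the DCIS libraries did not decide. Of the 4037 regions tested in DCIS that overlapped a 10A control region but no DCIS control region, 61.2% were up and 0.372% down, with a median log2 fold change of 1.54. Of the 28668 that overlapped neither, 23.1% were up and 3.73% down, with a median of 0.52. The difference was present in every width class, from 58.0% against 20.2% at 200 bp to 76.3% against 41.5% at 2000 bp or more. Regions are not replicates, so no test was made over them. The opposite comparison did not give a like difference at matched width. Of 10A regions with no 10A control mark, 51.0% were up where DCIS control cells were marked and 35.6% where they were not, but the shares were 26.6% and 30.9% at 500 to 900 bp and 74.5% and 74.0% at 2000 bp or more.

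**Figure D2:**
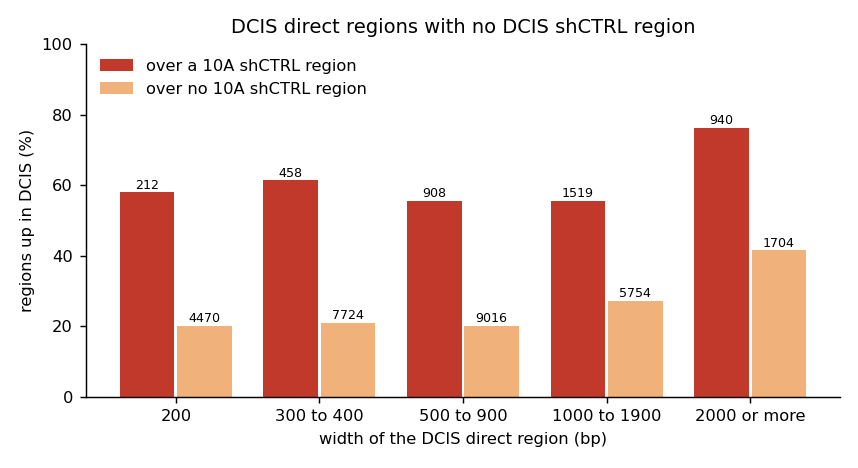
Share (%) of regions called up by shANCO1 in DCIS among those with no DCIS shCTRL region, by width in bp. Red bars overlap a 10A shCTRL region, orange bars do not, and the number over a bar is the number of regions. The red bars stand between 55.6% and 76.3% and the orange bars between 20.1% and 41.5%.

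AP-1 letters were concentrated just outside the edges of the 10A-only regions. Within the outermost 100 bp of a region the density was 0.205 matches per kb, at 100 to 200 bp outside it was 0.804 and at 900 to 1000 bp outside 0.20, against 0.157 over the whole genome. Away from promoters the density at 100 to 200 bp was 0.939 for 10A-only and 0.893 for common regions, a small difference. At promoters it was 0.591 and 0.280. TEAD letters had a lower rise, to 0.843 matches per kb at 100 to 200 bp outside 10A-only regions, against 0.634 for common regions and 0.610 over the genome. RUNX letters (TGTGGTT) were at 0.263 beside 10A-only and 0.175 beside common regions, against 0.199 over the genome. GATA letters (AGATAAG) were at 0.154 and 0.0753, against 0.15. ETS letters (CCGGAAGT), common at housekeeping promoters, were at 0.0349 beside 10A-only and 0.143 beside common regions.

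The density of AP-1 letters also differed by what happened in DCIS. At 100 to 200 bp outside, it was 1.00 match per kb for members up in DCIS, 0.578 for those tested and not called, and 0.777 for those not tested. TEAD letters were at 0.991, 0.658 and 0.843 in the same order. Neither rule nor call used sequence, but GC content and the share of promoters differ between these sets and their part was not tested.

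**Figure D3:**
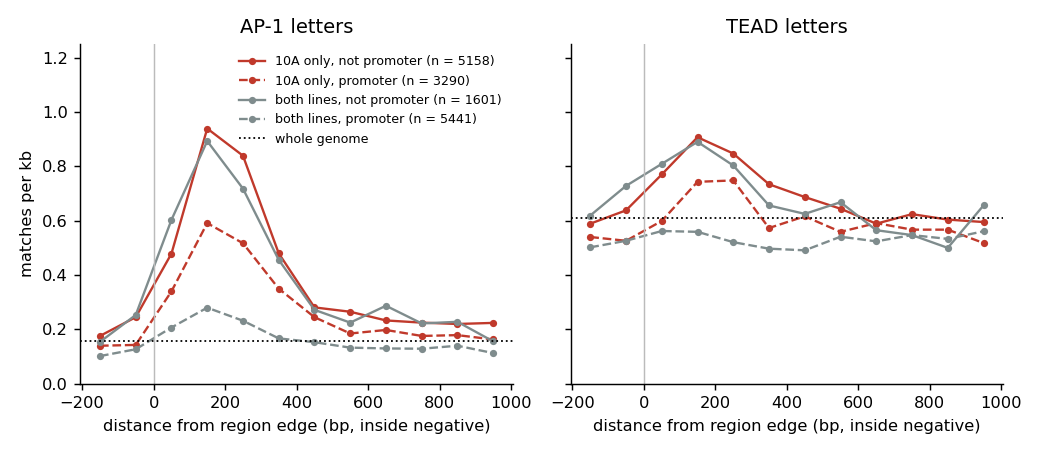
Matches per kb to AP-1 letters (left) and TEAD letters (right) by distance in bp from the nearest edge of a 10A control region, inside negative, both edges pooled, in bins of 100 bp. Red, 10A-only regions; grey, common regions; solid, outside promoters; dashed, at promoters; dotted, whole genome. AP-1 letters rise to 0.939 and 0.893 per kb at 100 to 200 bp outside distal 10A-only and common regions, and to 0.591 and 0.280 at promoters.

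Some such edges faced each other, although 3923 of the 8448 regions had no other 10A-only region within 12.5 kb. Neighbouring 10A-only regions left 1124 gaps of 300 to 500 bp, 300 bp being the smallest gap between regions that did not touch, and 38.2% of these gaps held AP-1 letters at a mean of 1.14 matches per kb. The gap sequences printed for MICAL2, AIG1, FYB1 and F3 are of this kind. Of 995 such gaps between common regions 18.5% held them, and of all 2739 gaps in 10A 27.4%. With no promoter on either side the shares were 40.5% of 787 and 36.9% of 236. Where both flanking 10A-only regions were up in DCIS 45.3% of 464 gaps held AP-1 letters, and where both were tested and neither was up 31.9% of 166. TEAD letters were found in 32.5% of gaps between 10A-only and 21.9% of those between common regions.

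In the central 200 bp AP-1 letters occurred in 4.01% of the 10A-only regions, 3.51% of the common ones and 3.78% of all 10A control regions. The shares that follow are for the central 500 bp, which reaches past the edges of most 10A-only regions (median width 400 bp). There AP-1 letters occurred in 11.7% of the 10A-only regions, 8.58% of the common ones and 10.3% of all 10A control regions. Outside promoters the 10A-only share was lower than the common one (13.6% against 15%). The TEAD shares were 26%, 25.3% and 25.7%, and the GATA shares 8.74%, 5.23% and 7.14%. Forkhead letters (TGTTTAC) were in 9.16%, 6.77% and 8.08%, RUNX letters in 9.93%, 7.94% and 9.03%, and ETS letters in 0.438%, 2.29% and 1.28%. The longer letters searched for GRHL (AACCGGTT) and CEBP (TTGCGCAA) were each in under 1% of regions in every set. No motif contains the letters of another, and matches on either strand count as presence only.

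The 8448 regions named 4441 genes, of which 1747 had no DCIS control region, and 754 of these had a DCIS shANCO1 region. The 10 leading loci were the genes with no DCIS control region and the most bases of 10A-only regions: KCNJ15, AIG1, MICAL2, CDH13, SAMSN1, ABLIM3, RUSC2, MYOSLID, BACH1 and FYB1. In knockdown DCIS cells 9 of the 10 had between 1 and 11 regions over input, and SAMSN1 had none.

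**Figure D4:**
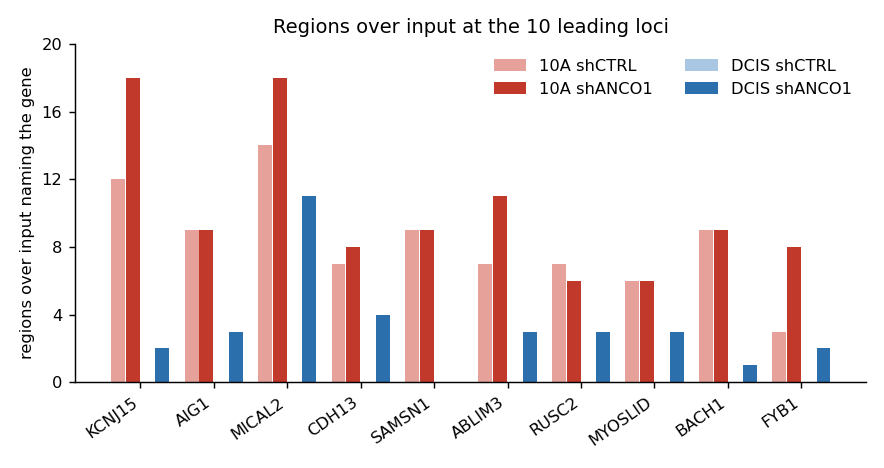
Number of regions over input that name each of the 10 leading loci in 10A shCTRL, 10A shANCO1, DCIS shCTRL and DCIS shANCO1 cells. DCIS shCTRL has no bar because loci with such a region were not eligible. DCIS shANCO1 bars reach 11 at MICAL2 and are absent at SAMSN1.

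MICAL2 encodes an actin-oxidizing enzyme that acts on nuclear actin and SRF targets. Its 14 regions, of which 7 touched a MICAL2 promoter, lay before the gene start and within the gene (chromosome 11, 12094008 to 12359144). All 14 were up in 10A, by 0.72 to 1.17 (the lowest fall below the 10A median of 0.76), and all 11 tested in DCIS were up, by 1.24 to 4.87 with a median of 2.47 (lowest FDR 6.83e-12). Neighbouring regions shared tested regions in both lines, here and at other loci below, so such counts are of fewer separate tests. The largest DCIS gain was at an intronic region of 900 bp (chr11:12176201-12177100), where 10A rose by 1.01 and DCIS by 4.87.

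CDH13, an atypical cadherin anchored to the membrane by a lipid, had 7 regions at and after its start (82626965 on chromosome 16), 3 of them at the promoter. All 7 were up in 10A, by 0.70 to 1.31 (2 of them below that median), and all 7 in DCIS, by 2.34 to 4.38, with tested regions shared between neighbours in both lines. AIG1, a hydrolase of fatty acid esters, had 9 regions, of which 7 were up in 10A, and all 7 tested in DCIS were up with a median of 2.61. Its widest region (2800 bp, chr6:143332301-143335100) rose by 1.06 in 10A and 4.48 in DCIS. The AIG1 and MICAL2 regions thus had a DCIS value above the 10A value wherever both were tested. Loci with a DCIS control region were not eligible, so a low DCIS control level was selected and this contrast is a description.

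ABLIM3, an actin-binding LIM protein, had 7 regions, 6 up in 10A, and all 5 tested in DCIS up (2.09 to 2.92). Together with regions before the gene it formed the run with the most such regions, 11 within 38.5 kb with no gap above 12.5 kb and no DCIS control region, of which 8 of 9 tested were up in DCIS. BACH1, a heme-regulated repressor, had 8 of 9 up in 10A and 4 of 5 up in DCIS. MYOSLID, a long non-coding RNA first described in smooth muscle, had 6 of 6 and 4 of 5. RUSC2 had 7 of 7 up in 10A and 2 of 6 in DCIS.

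Few or none of the regions of KCNJ15 and SAMSN1 were tested in DCIS. KCNJ15, an inwardly rectifying potassium channel, had the most bases (12 regions over 10200 bp), but 4 of 12 were up in 10A and 1 was tested in DCIS, where it was up by 3.14. The gene had 2 regions over input in DCIS shANCO1 cells. SAMSN1, an adaptor protein of haematopoietic cells, had 9 regions, 3 up in 10A, and none was in a tested DCIS region. FYB1, an adaptor of T cells and platelets, had 3 regions, of which 1 was up in 10A and 2 were up in DCIS by 3.18, in 1 tested region.

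**Figure D5:**
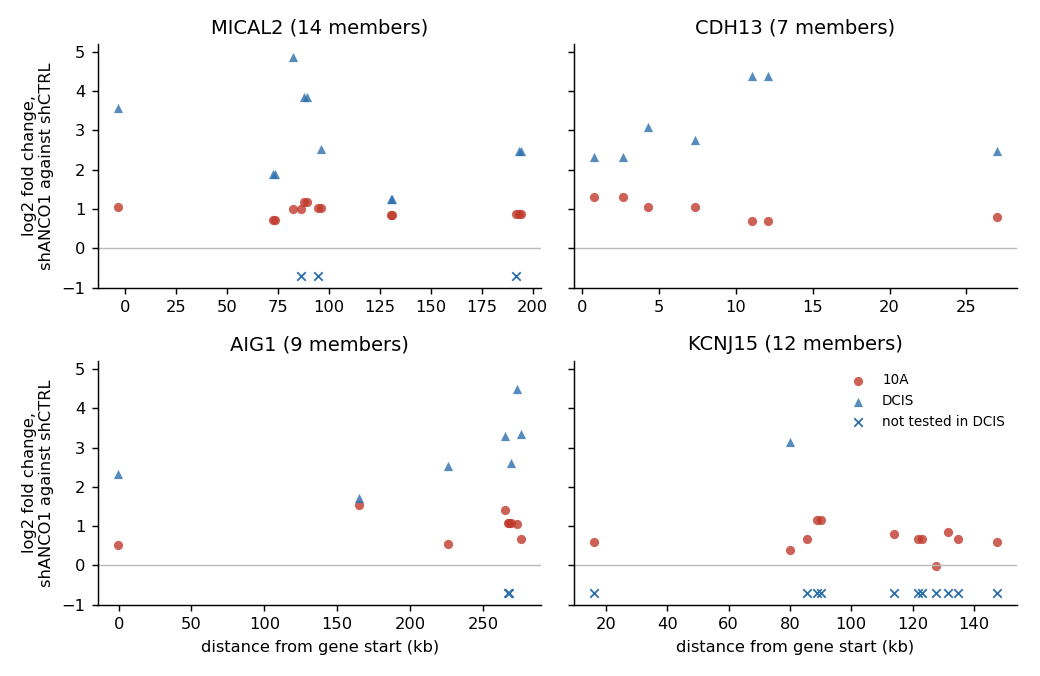
Log2 fold change of shANCO1 against shCTRL at each 10A-only region of 4 loci, by distance in kb from the gene start. Red circles, 10A; blue triangles, DCIS; crosses, regions not tested in DCIS. At MICAL2, CDH13 and AIG1 the triangles lie between 1.24 and 4.87 and the circles between 0.53 and 1.54, while at KCNJ15 11 of 12 regions were not tested in DCIS. Circles below 0.76 turn negative after centring on the median of all 10A regions. The loci were chosen for having no DCIS control region, so the height of triangles over circles is a description.

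The 5 regions with the largest log2 fold change over input in 10A control cells, among those with at least 5 windows, follow in that order. The ranking uses values that chose the regions, so it is a description. In 10A shANCO1 cells they had 4.09, 8.07, 4.17, 4.35 and 6.27 over input, which did not follow their direct changes. The largest (log2 8.22) was intergenic (chr20:11453701-11457900, 4200 bp) and rose by 0.72 in 10A and 2.32 in DCIS. One in an intron of CNTNAP4, a neuronal adhesion protein (8.20, chr16:76779601-76782200), was called in neither line, at −1.01 in 10A (FDR 0.143) and −1.30 in DCIS (FDR 0.177). An intergenic region on chromosome 10 (2110701 to 2112000) had 0.55 in 10A (FDR 0.564) and was up by 3.91 in DCIS. An intronic region of MAP3K20, a stress-activated kinase, was up by 1.71 in 10A and 2.26 in DCIS. An intronic region of NKAIN2 had 0.64 in 10A (FDR 0.351) and was up by 3.42 in DCIS.

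The largest gains in 10A were between 2.49 and 2.58 and were at an intergenic region of chromosome 5 (98309501 to 98309900), a promoter region of CHIC2, an intron of MXD1, a MYC-network repressor, and an intron of the nuclear receptor gene RORA. The CHIC2 region (2.51) had 0.33 in DCIS (FDR 0.868), the MXD1 region (2.50) was up by 1.37 in DCIS, and the others were not tested there. The largest losses were at 2 neighbouring intergenic regions of chromosome 2 in 1 tested region (−1.36, FDR 0.00242), of which the sequence is printed above, then in introns of PCCA (−1.34, with 1 of 35 windows down) and PARP10 (−1.33, with 2 windows up and 2 down of 31). None of these 4 was tested in DCIS.

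In DCIS the largest gain, 7.80 (FDR 1.49e-18), was over both regions beside the printed ADAMTSL1 gap, in an intron of this secreted matrix protein gene, and they rose by 0.85 and 1.00 in 10A. Next was the promoter region of PDCD1LG2, which encodes the immune checkpoint ligand PD-L2 (chr9:5509101-5509600), up by 7.03 in DCIS and 1.05 in 10A. PDCD1LG2 had a second region, up by 4.14, and no region over input in DCIS cells with either hairpin. A pair of intergenic regions on chromosome 10 (106438101 to 106441800) shared a gain of 5.61 in DCIS and 0.63 in 10A. The largest losses were intergenic on chromosomes 15 (−4.83), 6 (−2.49) and 5 (−2.31) and at the promoter of CYP4X1, a cytochrome P450 (−2.31, with 1 of 34 windows down). The chromosome 6 region was up by 1.15 in 10A. It lay 201 bp from a DCIS control region, the CYP4X1 region 301 bp from one, and the chromosome 5 region touched one.

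Gene lists were read by their 10A-only regions, so their counts stand beside the shares of all 10A-only regions called up, 62.3% in 10A and 56.2% in DCIS, and not only beside those of all tested regions, 43.6% and 23.6%. None of the lists was tested. Neighbouring regions of a gene often shared a tested region, so the counts are of regions and not of separate tests. Of all 4441 genes with a 10A-only region, 1747 had no DCIS control region. In the list of YAP, TAZ, TEAD and their target genes, 22 of 26 genes had a 10A control region. That list had the most 10A-only regions, 68 at 19 genes. Of these 56 of 68 were up in 10A (median 0.91) and 28 of 48 in DCIS (median 1.21). It held 8 genes with no DCIS control region: ARHGEF17, CCN1, CCN2, F3, FSTL1, LATS2, NT5E and VGLL3. F3, which encodes tissue factor, had 6 promoter regions, all up in 10A (0.73 to 0.96, with 4 below the 10A median) and 3 of 4 up in DCIS, all 3 in 1 tested region (1.5). ASAP1, an ARF GTPase-activating protein, had 10 of 12 up in 10A and 4 of 6 in DCIS, and YAP1 itself 3 of 4 and 2 of 3.

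Epithelial-mesenchymal regulators and cadherins had 8 of 15 genes, with 17 of 22 regions up in 10A and 15 of 21 in DCIS (median 2.01). CDH13, FN1, SNAI2, TWIST1 and TWIST2 had no DCIS control region. SNAI2, a repressor of epithelial genes and a basal cell factor, had 3 regions, all up in 10A (1.12 to 1.37) and all in 1 DCIS region that was up by 1.78 (FDR 0.0476). CDH3, P-cadherin, had 2 of 5 up in 10A and 4 of 5 in DCIS. Collagen genes had 13 of 14 up in 10A and 9 of 12 in DCIS, among them COL17A1 of the hemidesmosome (2 of 2 and 2 of 2, up to 4.02 in DCIS) and the basement membrane chain COL4A2 (2 of 2 and 2 of 2). COL4A6 had 2 of 2 and 1 of 2.

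Hemidesmosome and laminin genes had 24 of 36 regions up in 10A and 18 of 26 up in DCIS, with 1 down. LAMB3, a chain of laminin-332, had 3 regions up in both lines (1.26 to 1.34 in 10A, 2.09 to 3.18 in DCIS), and LAMA3 had 4 of 6 and 4 of 4. LAMB1 had 6 of 6 and 2 of 3, and DST 8 of 14 and 6 of 11. Desmosome genes had 5 of 10 and 5 of 9. PKP2, a plakophilin, had none of 3 called in 10A and 3 of 3 up in DCIS, DSP 3 of 3 and 2 of 3, and DSG3 2 of 2 and none of 2. Keratin genes had 3 of 4 and 2 of 4, with KRT6A up in both lines, KRT80 at 2 of 2 and 1 of 2, and KRT10 called in neither.

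Basal and squamous transcription factors had 11 of 20 up in 10A and 12 of 18 in DCIS. TP63, the master regulator of basal epithelium, had 8 regions with none called in 10A (−0.64 to 1.12, lowest FDR 0.0712) and 6 of 7 up in DCIS (1.28 to 2.43 over the 7). BNC1 had 3 of 4 and 4 of 4, and TFAP2A 4 of 4 and 1 of 3. Luminal factors had 2 of 6 and 3 of 3, from ESR1 (1 of 5 and 2 of 2) and EHF (1 of 1 and 1 of 1). HOX genes had 7 of 8 and 5 of 7, with HOXA3 up at 3 of 3 in both lines and HOXA10 up in 10A (0.85) but not called in DCIS (−0.04).

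EGF ligands and ERBB receptors had 15 of 17 up in 10A and 11 of 14 in DCIS. EGFR had 9 of 9 and 4 of 7, the ligand NRG1 2 of 4 and 4 of 4 and the ligand TGFA 3 of 3 and 3 of 3. RAS-MAPK feedback genes had 21 of 26 and 9 of 22, with NF1 at 4 of 6 and 1 of 3, RASAL2 at 2 of 3 and 2 of 3 and ERRFI1 at 4 of 5 and 1 of 5. TGF-beta and BMP genes had 30 of 47 and 9 of 29. Within that list LTBP2 had 6 of 7 and 6 of 6 and LTBP1 6 of 6 and 1 of 1, whereas the coreceptor TGFBR3 had none of 7 and none of 4. WNT genes had 3 of 13 up and 1 down in 10A and 6 of 9 up in DCIS, with the receptor ROR1 at 1 of 9 up, 1 down, and 4 of 7 up and the antagonists DKK1 and DKK3 at 1 of 1 and 1 of 2 in 10A and 1 of 1 each in DCIS. The Notch list had 1 region, at NOTCH1, called in neither line.

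Interleukins, chemokines and receptors had 16 of 18 up in 10A and 6 of 11 in DCIS (median 2.19), and CXCL6, IL1A, IL1B, IL1R1, IL6 and IL7R had no DCIS control region. IL1A, an alarmin of epithelial cells, had 2 regions up in 10A by 1.19 and 1.41, and the 1 tested in DCIS rose by 4.64 (FDR 1.03e-13). OSMR had 3 of 3 and 1 of 1, and IL7R was not called in 10A and rose by 2.19 in DCIS. NF-kB genes had 8 of 10 and 5 of 8, with TNIP1 up at 4 of 4 in both lines, BIRC3 at 2 of 2 and 1 of 2, and TNFAIP3 at 2 of 2 in 10A and untested in DCIS. AP-1 genes had 3 regions, at ATF7, BATF and ATF2, all up in 10A and untested in DCIS.

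Interferon response genes had 10 of 39 genes with a region, of which 8 had no DCIS control region (EPSTI1, HERC6, IFI44L, IFIT2, IFIT3, IFIT5, SAMD9 and XAF1). Of the regions 12 of 19 were up in 10A, and 3 of 14 in DCIS (21.4%, median 0.26). IFIT3, an interferon-induced protein with antiviral function, had 3 of 3 up in 10A (0.94 to 1.00) and 0.34 in DCIS (FDR 0.832). EPSTI1 had none of 3 and none of 2, and IRF2 3 of 4 and 2 of 4. Matrix metalloproteinase and plasminogen genes had 13 of 15 and 4 of 7, with TFPI at 3 of 4 and none of 2 and MMP19 up in 10A and untested in DCIS. F3, already counted with the YAP and TEAD genes, supplied 6 of the 13 regions up in 10A and 3 of the 4 in DCIS. Cyclins, CDK inhibitors and MYC genes had 11 of 17 and 5 of 12, with CDK6 at 4 of 9 and 4 of 6, CDKN2C at 2 of 3 and none of 3 and RB1 at 2 of 2 and none of 1.

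Integrin and receptor genes with several regions were looked at after their values were seen. ITGB1, the beta subunit of many matrix receptors, had 10 of 10 regions up in 10A (0.79 to 1.34) and 8 of 8 in DCIS (1.70 to 5.35). Several of these regions shared a tested region. Its partner ITGA2 had 4 of 7 and 3 of 3, and the HGF receptor MET 6 of 9 and 2 of 3. RUNX1 had 11 of 11 up in 10A but 2 of 9 in DCIS (−0.92 to 1.80). COL8A1 had 1 region, up by 1.78 in 10A and 5.10 in DCIS.

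ANKRD11, which encodes ANCO1, had 2 narrow intronic regions (500 bp together). They were not called in 10A (0.38 and 0.67, lowest FDR 0.196) and were both up in DCIS (1.80 and 1.88, lowest FDR 2.62e-05). With its coactivator and HDAC partners 13 of 21 regions were up in 10A and 4 of 17 in DCIS, where HDAC9 had 1 of 2, ANKRD12 none of 3 and NCOA3 none of 2. The list also held the adenosine deaminase gene ADA, which is not a known partner, so these counts are not of partners alone. ANCO1 RNA or protein in these cells was not measured by the files used here, so the knockdown itself could not be checked.

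The labelled cell type was read from marker genes. Of 10 mammary epithelial markers 8 had a control region in 10A and 9 in DCIS. KRT14 had none in either line and KRT17 had one in DCIS only. Of 23 markers of stromal, endothelial, immune, neural and fat cells 6 had a control region in 10A and 4 in DCIS, and 17 had none in either. The endothelial gene PECAM1, the myeloid genes CD68 and SPI1 and the fat cell gene PLIN1 had one in both lines, whereas others of these classes, such as CDH5, PTPRC, CD3E and ADIPOQ, had none. The 2 of these with a 10A-only region were SNAP25 and PDGFRA. The latter name comes from the authors' annotation of the CHIC2 promoter region (chr4:54063501-54063800), which lies before the PDGFRA gene start in GENCODE (54229280).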

How the data were processed

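Per the study's methods and the submitters' processing notes, the authors checked reads with FastQC, used BWA and Rsubread for alignment to GRCh38, dropped duplicate reads by SAMtools and tested regions with csaw, annotated by ChIPpeakAnno; HOMER is also named. The deposited values were, for each region of 6 tables, a log2 fold change, a p-value with its FDR, window counts and overlapping or neighbouring genes. They are the authors' own comparisons of 3 libraries per group, used as deposited because no values per library were given; normalization, prior count and merging were not given in the sources used here. Log2 fold changes over input and between hairpins are therefore the authors' values for a representative window.

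A region of the 10A shCTRL table was kept when no region of the DCIS shCTRL table overlapped it. Each kept region took the direct region sharing most bases, which neighbours may share, and a call needed FDR under 0.05 in the authors' direction. Genes, promoters, exons and introns are those of the authors' annotation, and TSS, exons and gene spans are from GENCODE 44. Motif matches were counted on both strands of hg38, in the central 500 bp and by distance from region edges; the edge and gap counts were added after wider windows had given more matches. Scripts used Python 3.11.15, NumPy 2.4.6, pandas 2.3.3 and SciPy 1.17.1 and were tested on simulated regions.

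The regions, gene lists and tests were chosen with earlier results of these data known. Named genes were the 10 leading loci by bases without a DCIS shCTRL region (leaving out non-coding names that begin with LINC, LOC, MIR or SNOR or hold -AS), the 5 strongest regions over input, the 4 largest changes per direction, up to 3 genes per list (1 is not reported here), and ANKRD11. Regions are not replicates, so no test across them was made.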

Additional observations from a re-analysis of the deposited data

How the results depend on the processing

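No paired analysis was possible because the tables hold 1 value per region and none per library, and for the same reason no library could be left out. Of 38 alternatives, 24 stayed within 1.5 times of the reported count or inside the 95% Wilson interval of the reported share. The number of regions fell from 8448 to 3065 with an FDR over input under 1e-10 and to 2044 with at least 5 windows. Regions up in 10A fell from 5266 to 2572 when a change of 1 or more on the log2 scale was also asked for, while regions up in DCIS stayed within 1.5 times of 3385 under each alternative. Regions down in 10A went from 37 to 13 at an FDR under 0.01, 68 at an FDR under 0.1 and 822 when the direction was taken after centring on the median of all 10A regions, a setting under which 4481 were up. That setting kept the authors' FDR and was no test against the median. Regions down in DCIS went from 32 to 15 at 0.01, 67 at 0.1 and 13 among regions with no DCIS control region within 5 kb. With at least 50% of a region covered, the share overlapping a DCIS shANCO1 region was 19.1% in place of 25.1% and a 10A shANCO1 region 89.8% in place of 91.1%. The promoter share was 16.9% in place of 38.9% by GENCODE protein-coding TSS within 1 kb. The AP-1 share was 4.01% in 200 bp and 36.2% in 1000 bp in place of 11.7% in 500 bp. Windows of 500 bp and 1000 bp reached past the edges of most of these regions. Counting each direct region once, an alternative chosen after seeing the data, gave 4221 up and 32 down in 10A and 2832 up and 31 down in DCIS. Depth and replicate spread behind each region are unknown.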

Other observations

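Some longer non-coding loci, left out of the leading loci by the naming rule or by a DCIS control region, held many 10A-only regions. LINC01374 on chromosome 10 had 22 over 19400 bp, the most bases of any name, with 2 up in 10A and 3 of 5 tested up in DCIS. MYOSLID-AS1 had 15, all up in 10A and 5 of 7 up in DCIS, and SLC44A3-AS1 had 14, all up in 10A and 12 of 13 up in DCIS, with a DCIS median of 3.03. LNCAROD had 11 over 11300 bp, with 5 up in 10A and none of 3 up in DCIS.

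Of the coding loci with a DCIS control region elsewhere in the gene, TENM2, a teneurin adhesion receptor, had 14 regions with 4 up in 10A and 8 of 8 tested up in DCIS (median 3.04), and FRMD6, a FERM protein of the Hippo pathway, had 9 of 12 up in 10A and 7 of 7 up in DCIS (median 2.67). PDE4D, a cAMP phosphodiesterase, had 12 of 15 up in 10A but 1 of 7 up and 1 down in DCIS, with a DCIS median of −0.94, and also had 22 DCIS control regions. Runs with no DCIS control region included 8 regions at MAP3K20 over 34.6 kb, with 7 of 7 tested up in DCIS, and 9 at SLC16A12 over 23.4 kb, with none of 4 up.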
